A study of Saccharomyces cerevisiae with 15 samples.

Results

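Ribonucleotide reductase makes the deoxyribonucleotides (dNTPs) used for DNA synthesis, and the genes described here encode its subunits, its small protein inhibitors, the repressor RFX1 and the damage-inducible gene DIN7. The 8 genes RNR1, RNR2, RNR3, RNR4, HUG1, SML1, RFX1 and DIN7 were chosen by name in the platform's annotation of probe sets, out of 5449 tested genes of budding yeast (Saccharomyces cerevisiae). The rule itself uses no measured value, but the members were chosen with earlier results of these data known. All 8 were on the array, each with 1 probe set and none with an identifier that marks shared probes. The study compared RNA of polymerase II mutants with that of wild-type cells on 15 one-colour Affymetrix arrays, in 5 groups of 3 biological replicates. Cells were in mid-log growth in liquid YPAD, a rich medium, and the labels give no growth temperature. WT1B (strain W303-1BR5, mating type alpha) was the wild type for rpb1-1 (WRP1- 12A) and rpb1S751F (WSR8-5A), both of mating type alpha. WT1A (W303-1AR5, mating type a) was the wild type for rpb2-10 (WRP2, mating type a). All 5 strains were of W303 background with RAD5, and all carried ura3-1, trp1-1, can1-100, ade2-1, his3-11,15 and both the leu2-3 and leu2-112 mutations. RPO21, the gene altered in rpb1-1 and rpb1S751F, codes for the largest polymerase II subunit, and RPB2, altered in rpb2-10, for the next in size. Each mutation was present in 1 strain, so other differences between a strain and its wild type cannot be told apart from the mutation.

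As background, the yeast enzyme is built from a large subunit, made from RNR1 and, mainly after DNA damage, from its paralog RNR3, and a small subunit that pairs the products of RNR2 and RNR4. In growing cells RFX1 (also called CRT1) holds the Cyc8-Tup1 corepressor on the promoters of RNR2, RNR3, RNR4, HUG1 and RFX1 itself, and the checkpoint kinases Mec1, Rad53 and Dun1 release it when replication stalls or DNA is damaged. RNR1 follows the G1 to S programme of the factor MBF and depends on the HMG-box protein Ixr1. Sml1 binds the large subunit and inhibits it, and Hug1 binds the small subunit, while DIN7 encodes a damage-inducible mitochondrial nuclease.

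The deposited values were log2 expression levels, 1 per probe set and array. The median level of the tested genes was 10.0355 to 10.0947 over the 9 alpha-strain arrays but 7.7486 to 7.832 over the 6 a-strain arrays, so levels are set side by side only within a mating type. For each of the 15 arrays the closest other array came from the same group. The mating-type genes went with the labels: after median centring, all 7 a-specific genes were higher in both a strains than in every alpha strain, and 4 of 5 alpha-specific genes were lower. The 3 genes of diploid or meiotic cells lay between -4.50 and -1.63 in a strains and between -6.50 and -2.31 in alpha strains, with 1 of them higher in both a strains. The RNA level of a mutated gene does not check the label of such an allele. RPO21 was higher by 0.40 ± 0.07 in rpb1-1 and by 0.37 ± 0.07 in rpb1S751F, and RPB2 in rpb2-10 differed from WT1A by 0.0039 ± 0.06 (adjusted p = 0.962). All 120 values of the 8 genes lay above the 95th percentile of the probe sets of another species on the same array. Fold changes below are log2 values ± SE, mutant minus its own wild type, from a limma fit across all tested genes with n = 3 arrays per group, and a call means that the two-sided p, adjusted over those genes after Benjamini and Hochberg, was below 0.05. Fold changes are relative to the other genes on the array, since such normalization hides a change common to most of them.

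**Figure D1:**
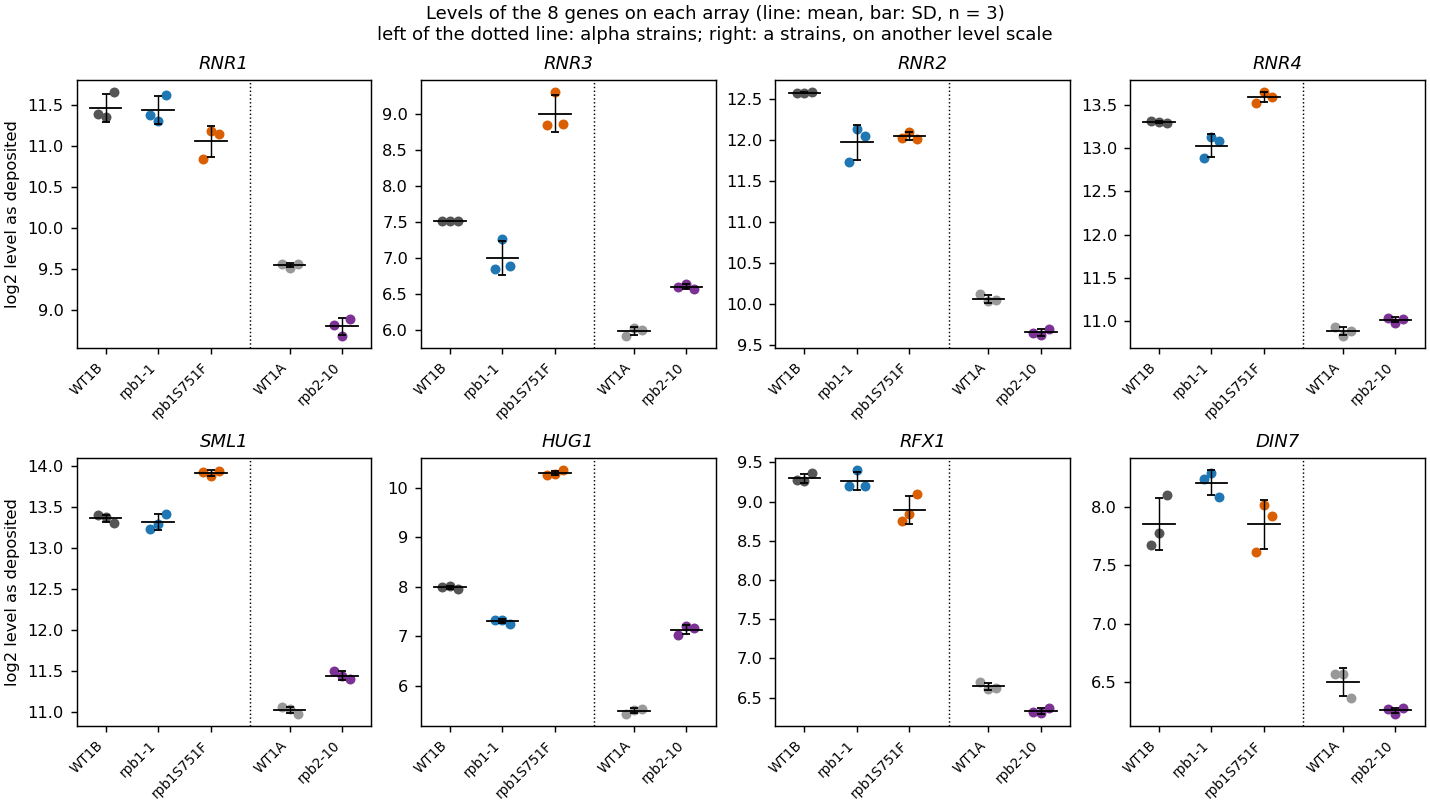
Deposited log2 level (vertical axis) of each of the 8 genes on every array, by group (horizontal axis); points are arrays, horizontal lines group means and bars SD with n = 3, and the dotted line separates alpha from a strains, whose levels are on different scales. HUG1 stands at 10.26 to 10.35 in rpb1S751F against 7.96 to 8.02 in WT1B, and RNR2 is lower than its wild type in every mutant array.

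In rpb1S751F the damage-inducible pair HUG1 and RNR3 stood highest above the wild type among the 8 genes, at 4.94-fold and 2.82-fold on the linear scale, and SML1 and RNR4 rose less, while RNR1, RNR2 and RFX1 fell. In rpb2-10 HUG1, RNR3 and SML1 rose, HUG1 by 3.11-fold on the linear scale, and RNR1, RNR2 and RFX1 fell. In rpb1-1 HUG1, RNR3, RNR2 and RNR4 fell and DIN7 rose. Of the 8 genes, 5 were called in rpb1-1 (1 higher and 4 lower), where 61.4% of all tested genes were called (31.7% higher and 29.8% lower). In rpb1S751F 7 were called (4 higher and 3 lower), where 64.3% of all genes were (36% higher and 28.3% lower). In rpb2-10 6 were called (3 higher and 3 lower), where 57% of all genes were (26.2% higher and 30.8% lower). Most genes of the array were called in each mutant, so the counts say little about these 8 genes, and the sizes and directions of the single genes carry the description. The median over the 8 genes was -0.16 in rpb1-1, 0.14 in rpb1S751F and -0.055 in rpb2-10, beside -0.0081, 0.041 and -0.047 over all tested genes. The rpb1 comparisons share the WT1B arrays.

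**Figure D2:**
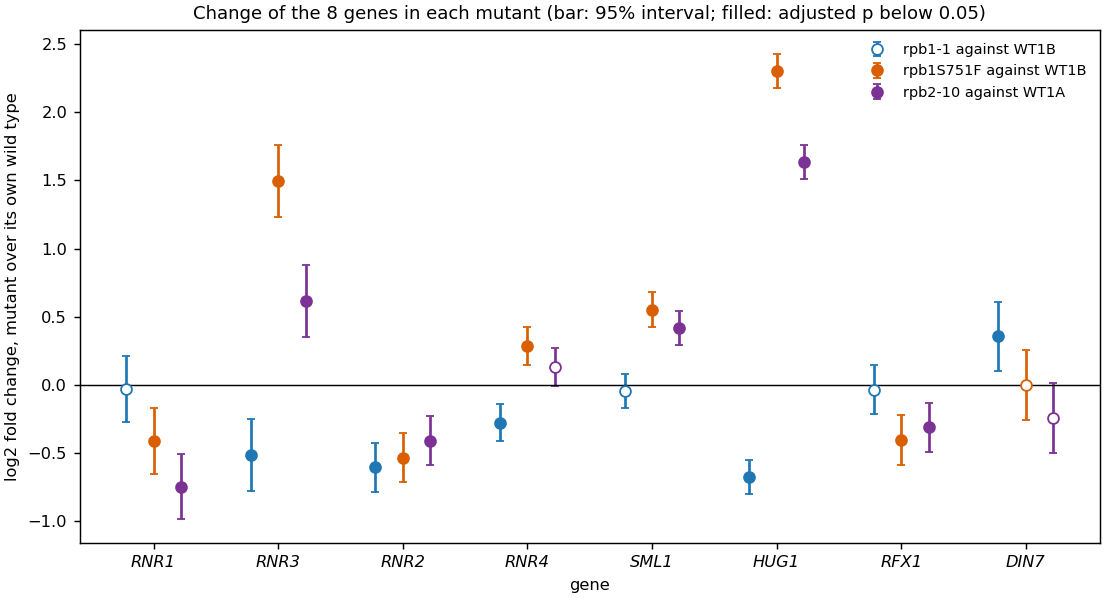
Log2 fold change (vertical axis) of each gene (horizontal axis) in each mutant against its own wild type; bars are 95% intervals of the limma fit with n = 3 arrays per group, and filled points passed an adjusted p of 0.05. HUG1 lies at 2.30 in rpb1S751F, 1.64 in rpb2-10 and -0.68 in rpb1-1, and RNR2 lies below 0 in all 3 mutants.

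The large-subunit genes moved apart. RNR3, the damage-inducible large subunit, read 7.5097 on all 3 WT1B arrays, 6.84, 7.27 and 6.89 on the rpb1-1 arrays and 8.85, 9.31 and 8.86 on the rpb1S751F arrays. The groups did not overlap and ran from rpb1-1 over WT1B to rpb1S751F. RNR3 fell by 0.51 ± 0.12 in rpb1-1 (adjusted p = 0.00244) and rose by 1.50 ± 0.12 in rpb1S751F (adjusted p = 3.23e-07). In the a strains it read 5.92, 6.03 and 5.998 in WT1A and 6.59, 6.63 and 6.56 in rpb2-10, again with no overlap. The rise in rpb2-10 was 0.62 ± 0.12 (adjusted p = 0.000796). The 3 equal WT1B values gave no measure of the spread in that group, as was so for 6 of the 5449 genes in WT1B, RNR3 included, and these arrays entered the pooled variance of RNR3 with no spread of their own. Why the values are equal was not tested.

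RNR1, the large subunit of unperturbed growth, read 11.39, 11.35 and 11.66 in WT1B, 11.37, 11.31 and 11.63 in rpb1-1, and 10.84, 11.18 and 11.15 in rpb1S751F. The WT1B and rpb1-1 arrays lay over each other, and all rpb1S751F arrays lay below both. The difference in rpb1-1 was -0.030 with a 95% interval from -0.27 to 0.21, so a change of that size in either direction is within the error. RNR1 fell by 0.41 ± 0.11 in rpb1S751F (adjusted p = 0.00570). In the a strains the values were 9.56, 9.52 and 9.56 in WT1A and 8.82, 8.69 and 8.89 in rpb2-10. That fall of 0.75 ± 0.11 (adjusted p = 8.37e-05) was its largest fall in the 3 mutants, and 8.15% of tested genes fell further in rpb2-10. In rpb1S751F and rpb2-10, then, RNR1 was lower where RNR3 was higher, and in rpb1-1 RNR3 was called and RNR1 was not.

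The small-subunit genes also differed from each other. RNR2, which encodes the catalytic small subunit, read 12.57, 12.57 and 12.58 in WT1B, 11.73, 12.13 and 12.05 in rpb1-1, and 12.03, 12.10 and 12.01 in rpb1S751F. Both mutants lay wholly below WT1B and overlapped each other. RNR2 fell by 0.61 ± 0.08 in rpb1-1 (adjusted p = 3.18e-05) and by 0.53 ± 0.08 in rpb1S751F (adjusted p = 0.000101). It was 10.12, 10.03 and 10.04 in WT1A and 9.65, 9.62 and 9.69 in rpb2-10, a fall of 0.41 ± 0.08 (adjusted p = 0.00100). RNR2 was thus lower than its wild type in all 3 mutants, the only one of the 8 genes called in the same direction in each.

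RNR4, whose product is a partner of Rnr2 that helps form the active small subunit, read 13.32, 13.30 and 13.30 in WT1B, 12.89, 13.13 and 13.08 in rpb1-1, and 13.53, 13.65 and 13.60 in rpb1S751F. The order was rpb1-1, WT1B, rpb1S751F, with no overlap between neighbours. RNR4 fell by 0.28 ± 0.06 in rpb1-1 (adjusted p = 0.00206) and rose by 0.28 ± 0.06 in rpb1S751F (adjusted p = 0.00173). In WT1A it was 10.93, 10.83 and 10.89, and in rpb2-10 it was 11.04, 10.98 and 11.02. This difference of 0.13 had a 95% interval from -0.0056 to 0.27 and did not pass (adjusted p = 0.0928), although the arrays did not overlap. It passed when each array was centred on its median (0.20, adjusted p = 0.0149), with array weights (adjusted p = 0.00522) and when the a strains were fitted alone (adjusted p = 0.0346). In rpb1S751F, RNR4 rose and RNR2 fell. Both are textbook targets of Rfx1, and whether Rfx1 bears on either level was not tested.

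SML1 encodes the inhibitor of the large subunit, whose protein is degraded after Dun1 phosphorylates it. It read 13.39, 13.37 and 13.30 in WT1B, 13.23, 13.29 and 13.41 in rpb1-1, and 13.92, 13.87 and 13.94 in rpb1S751F. The rpb1-1 arrays overlapped WT1B and the rpb1S751F arrays lay above both groups. The difference in rpb1-1 was -0.045 with a 95% interval from -0.17 to 0.081 (adjusted p = 0.528), and SML1 rose by 0.55 ± 0.06 in rpb1S751F (adjusted p = 3.26e-06). It also rose in rpb2-10, from 11.06, 11.03 and 10.98 to 11.50, 11.43 and 11.40, by 0.42 ± 0.06 (adjusted p = 5.09e-05).

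HUG1, known as strongly induced by hydroxyurea, ultraviolet light and gamma rays, had the largest absolute fold change of the 8 genes in each of the 3 mutants, except that in rpb1-1 RNR2 passed it after a further quantile normalization (-0.63 against -0.52) and with array weights (-0.71 against -0.70). It read 7.99, 8.02 and 7.96 in WT1B, 7.34, 7.34 and 7.26 in rpb1-1, and 10.26, 10.27 and 10.35 in rpb1S751F. The groups were widely separated, with rpb1-1 lowest and rpb1S751F highest. HUG1 fell by 0.68 ± 0.06 in rpb1-1 (adjusted p = 4.33e-07) and rose by 2.30 ± 0.06 in rpb1S751F (adjusted p = 3.52e-11). In rpb2-10 it rose from 5.44, 5.51 and 5.54 to 7.03, 7.20 and 7.17, by 1.64 ± 0.06 (adjusted p = 3.17e-10). Only 0.642% of tested genes had a higher fold change in rpb1S751F and 0.606% in rpb2-10, while 11.7% had a lower fold change than HUG1 in rpb1-1. RNR3 was exceeded by 2.57% of genes in rpb1S751F and by 8.31% in rpb2-10.

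**Figure D3:**
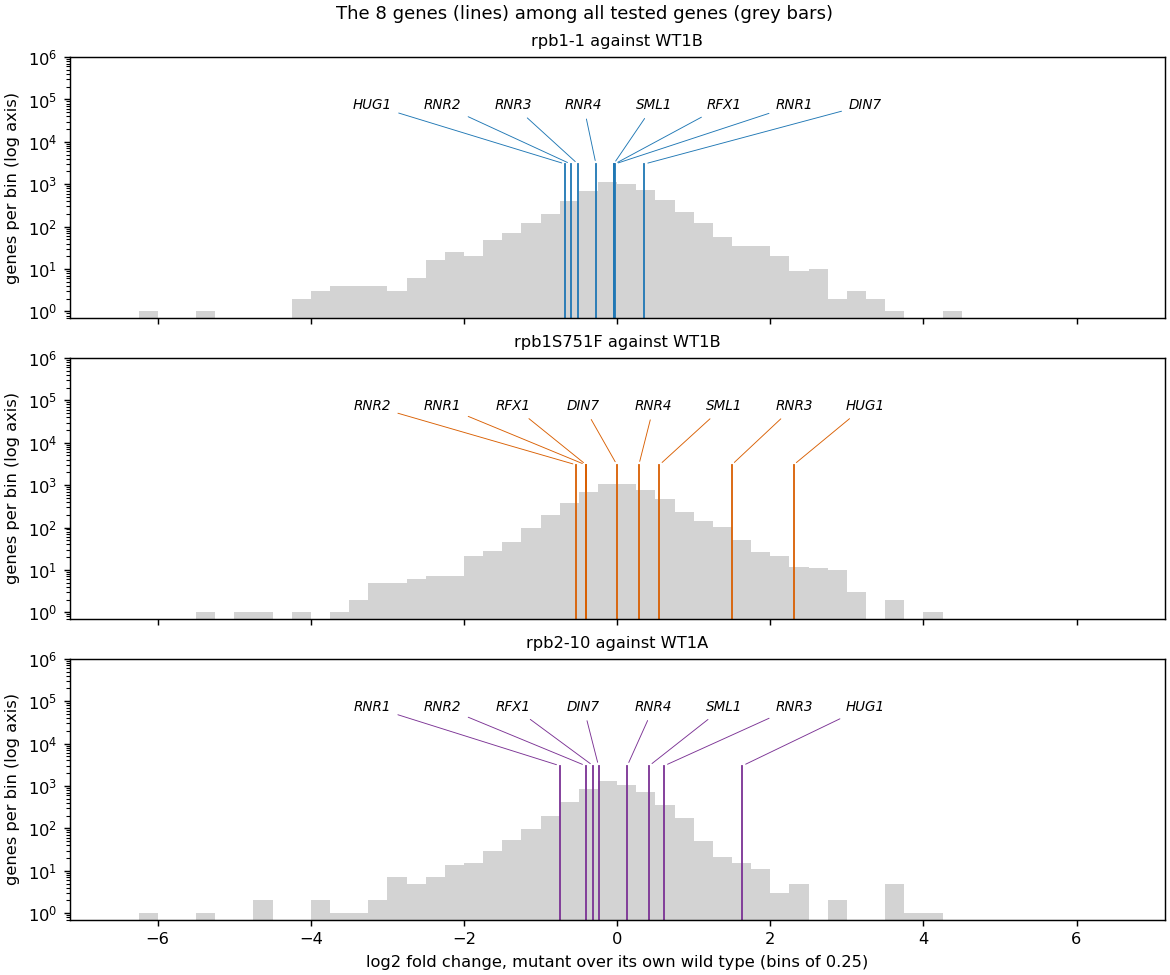
Number of tested genes (vertical log axis) by log2 fold change in bins of 0.25 (horizontal axis) for each mutant, with lines at the 8 genes. HUG1 lies in the upper tail in rpb1S751F and rpb2-10, where 0.642% and 0.606% of genes were higher, and inside the bulk on the lower side in rpb1-1.

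RFX1, the repressor of the damage-regulated RNR genes, read 9.27, 9.26 and 9.36 in WT1B, 9.20, 9.40 and 9.20 in rpb1-1, and 8.75, 8.84 and 9.09 in rpb1S751F. The WT1B and rpb1-1 arrays overlapped and those of rpb1S751F were lower. The difference in rpb1-1 was -0.034 with a 95% interval from -0.22 to 0.15, and RFX1 fell by 0.40 ± 0.08 in rpb1S751F (adjusted p = 0.000990). In the a strains it went from 6.70, 6.61 and 6.62 to 6.32, 6.30 and 6.37 in rpb2-10, a fall of 0.31 ± 0.08 (adjusted p = 0.00648) that did not pass after a further quantile normalization (-0.18, adjusted p = 0.0983). RFX1 RNA was lower in both mutants in which HUG1 and RNR3 were higher, and was not called in the mutant in which they were lower. Of the other textbook targets of Rfx1, RNR2 was lower in rpb1S751F and rpb2-10 (-0.53 and -0.41), and RNR4 rose in rpb1S751F but was not called in rpb2-10. Whether the RFX1 level bears on these genes was not tested.

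DIN7, a nuclease gene named for its induction by DNA damage, did not follow HUG1 and RNR3. It read 7.67, 7.78 and 8.10 in WT1B, 8.24, 8.29 and 8.09 in rpb1-1, and 7.61, 8.01 and 7.92 in rpb1S751F. The WT1B arrays spread over parts of both mutants, and all rpb1-1 arrays lay above those of rpb1S751F. The rise in rpb1-1 was 0.36 ± 0.12 (adjusted p = 0.0188), and it did not pass with the alpha strains fitted alone (adjusted p = 0.0564), without WT1B replicate 1 (0.27, adjusted p = 0.0872) or replicate 2 (0.32, adjusted p = 0.0633), or without rpb1-1 replicate 1 (0.34, adjusted p = 0.0503) or replicate 2 (0.31, adjusted p = 0.0617). In rpb1S751F the difference was -0.0016, with a 95% interval from -0.26 to 0.25. In WT1A it was 6.57, 6.57 and 6.36 and in rpb2-10 6.27, 6.23 and 6.27, a difference of -0.24 with an interval from -0.50 to 0.013 (adjusted p = 0.0962). That difference passed with the a strains fitted alone (adjusted p = 0.00862) and with array weights (adjusted p = 0.00185).

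The arrays of 4 of the 8 genes in rpb1-1, 7 in rpb1S751F and 8 in rpb2-10 did not overlap those of the wild type, where 63.2%, 62.5% and 76.1% of all tested genes did not. Replicates spread more in the alpha strains, where the median SD of a gene was 0.113 (WT1B), 0.119 (rpb1-1) or 0.125 (rpb1S751F), than in the a strains at 0.0657 (WT1A) or 0.0664 (rpb2-10). The shared variance of the fit therefore tends to understate the error for the alpha strains and to overstate it for the a strains.

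**Figure D4:**
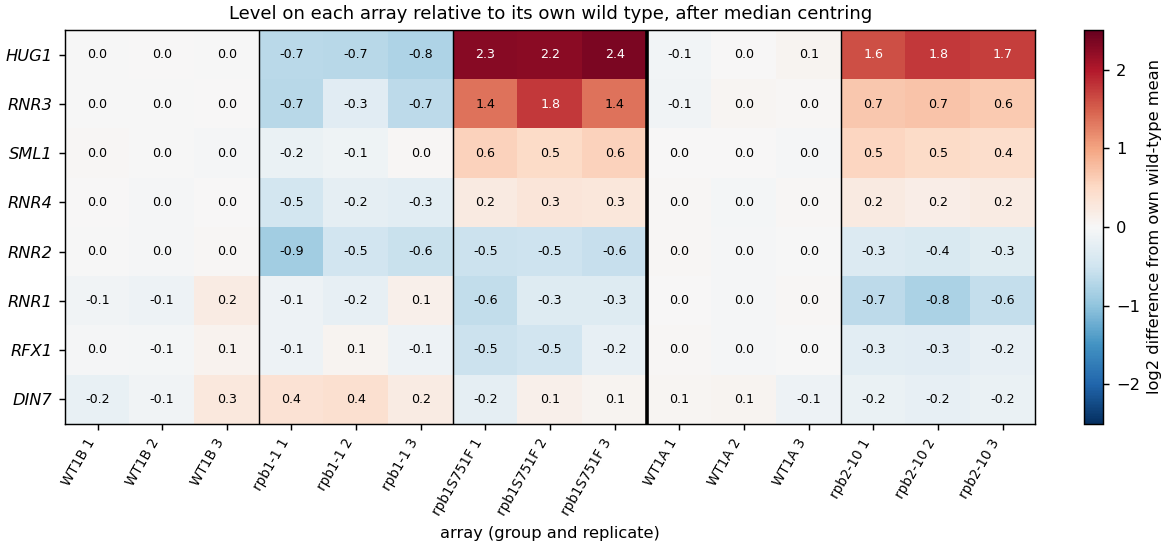
Log2 difference of each array (columns, by group and replicate) from the mean of its own wild type after median centring, for the 8 genes (rows); red is higher and blue is lower, and the thick line separates alpha from a strains. HUG1, RNR3, SML1 and RNR4 are above the wild type on every rpb1S751F and rpb2-10 array, and RNR2, RNR1 and RFX1 are below it on every one of those arrays.

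The rpb1 alleles were also compared directly. These fold changes do not use the wild-type arrays, but their SE and p rest on the variance shared by all 15 arrays. Between rpb1S751F and rpb1-1, 7 of the 8 genes differed (4 higher and 3 lower in rpb1S751F), where 56.6% of all tested genes did (29.3% higher and 27.3% lower), and the arrays of 7 genes did not overlap, as for 56.7% of all genes. HUG1 was higher in rpb1S751F than in rpb1-1 by 2.98 ± 0.06 (adjusted p = 7.27e-13) and RNR3 by 2.01 ± 0.12 (adjusted p = 1.79e-08). SML1 was higher by 0.60 ± 0.06 and RNR4 by 0.56 ± 0.06. RNR1, RFX1 and DIN7 were lower in rpb1S751F, at -0.38 ± 0.11, -0.37 ± 0.08 and -0.36 ± 0.12, with adjusted p of 0.0101, 0.00211 and 0.0202. The RNR1 difference did not pass without rpb1-1 replicate 3 (-0.29, adjusted p = 0.0511). The DIN7 difference did not pass with the alpha strains fitted alone (adjusted p = 0.0607), without rpb1-1 replicate 1 (adjusted p = 0.0550) or 2 (adjusted p = 0.0625), or without rpb1S751F replicate 1 (-0.24, adjusted p = 0.0921). RNR2 differed by 0.073, with a 95% interval from -0.11 to 0.25, so the alleles were not distinguished for this gene.

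The effects of the rpb1 alleles were then compared with that of rpb2-10, each taken against its own wild type. The effect of rpb1-1 differed from that of rpb2-10 for 6 of the 8 genes (2 higher and 4 lower), where 56.7% of all tested genes differed (31.1% higher and 25.6% lower). HUG1 showed the widest gap, at -2.31 ± 0.08 (adjusted p = 2.88e-10), followed by RNR3 at -1.13 ± 0.17 (adjusted p = 9.79e-05). SML1 and RNR4 also had lower effects in rpb1-1, and RNR1 and DIN7 higher ones. For RNR2 the difference of effects was -0.20 with a 95% interval from -0.45 to 0.059, and for RFX1 it was 0.28 with an interval from 0.021 to 0.54 that did not pass adjustment (adjusted p = 0.0612). The RNR2 difference passed when each array was centred on its median (-0.30, adjusted p = 0.0412), with array weights (-0.30, adjusted p = 0.00879) and without rpb1-1 replicate 2 (-0.28, adjusted p = 0.0443). The RFX1 difference passed with array weights (0.26, adjusted p = 0.0135), under which all 8 genes differed.

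The effect of rpb1S751F differed from that of rpb2-10 for 2 of the 8 genes, both higher, where 51.7% of all tested genes differed (30.7% higher and 21% lower). These were RNR3, with a rise larger by 0.88 ± 0.17 in rpb1S751F (adjusted p = 0.000810), and HUG1, with a rise larger by 0.67 ± 0.08 (adjusted p = 2.09e-05). For the other 6 genes the intervals included 0. For SML1 the interval ran from -0.045 to 0.31 and for RNR2 from -0.38 to 0.13, while for RNR1 it ran from -0.0023 to 0.68. With array weights RNR1 (0.48, adjusted p = 0.00104) and DIN7 (0.37, adjusted p = 0.00678) differed too. The RNR1 difference also passed with a replicate block (adjusted p = 0.0463), without WT1B replicate 3 (0.43, adjusted p = 0.0302) and without rpb1S751F replicate 1 (0.44, adjusted p = 0.0209). These comparisons cross the array sets, and mating type and array set cannot be told apart.

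The genes around the enzyme were taken from 8 lists of textbook members, in which a gene may stand more than once. Their counts are to be read against the genes called on the whole array, 31.7% higher and 29.8% lower in rpb1-1, 36% and 28.3% in rpb1S751F, and 26.2% and 30.8% in rpb2-10. In rpb1-1, 7 of 12 checkpoint genes rose and none fell in the limma fit, also none at an unadjusted p below 0.05, among them DUN1, the kinase that acts on Rfx1 and Sml1, at 0.68 ± 0.12, and RAD17 and RAD24, of the checkpoint clamp and its loader, at 0.81 ± 0.12 and 0.59 ± 0.07. The list median was 0.24 beside -0.0081 over all genes. Of 15 measured damage-inducible genes other than the 8, 10 rose and none fell, again none at an unadjusted p below 0.05, with DDI1 at 1.63 ± 0.11, the polyubiquitin gene UBI4 at 1.42 ± 0.12 and DDR48 at 1.34 ± 0.10, and the median was 0.47. HUG1 and RNR3 thus lay at -0.68 and -0.51 in the mutant in which most of these other damage-inducible genes were higher. DDI1, UBI4 and DDR48 are also known to respond to other stresses.

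Among the regulators of RNR transcription in rpb1-1, CYC8, the corepressor that Rfx1 recruits, fell by 0.24 ± 0.06 and NRM1, a corepressor of MBF, by 0.72 ± 0.16, while CRT10, named as a negative regulator of RNR genes, rose by 0.37 ± 0.10. Those were 1 higher and 2 lower of 8, with TUP1 at 0.039 ± 0.06 not called. Of the 4 genes of small-subunit localization only WTM2 was called, and it fell by 0.83 ± 0.13. Of 7 cofactor and electron donor genes 3 rose and 1 fell, with TRX2, a thioredoxin, at 0.72 ± 0.06, DRE2, of iron-sulphur electron transfer, at 0.69 ± 0.08 and the thioredoxin reductase gene TRR1 at 0.42 ± 0.05. Among the other dNTP enzymes 2 of 10 rose and 4 fell. CDC21, thymidylate synthase, rose by 1.17 ± 0.13, DCD1, the dCMP deaminase, fell by 1.36 ± 0.13, and DUT1, the dUTPase, fell by 0.51 ± 0.06.

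In rpb1S751F, 4 of 12 checkpoint genes rose and 3 fell, shares close to the 36% and 28.3% of all genes, with DUN1 at 0.57 ± 0.12, LCD1, the partner of Mec1, at 0.44 ± 0.08 and the adaptor gene RAD9 at -0.45 ± 0.09. Of the 15 other damage-inducible genes 9 rose and 2 fell, with UBI4 at 1.24 ± 0.12, DDI1 at 1.05 ± 0.11 and the recombination gene RAD54 at 0.50 ± 0.07, and the median was 0.31 beside 0.041 over all genes. Of 8 regulators 3 rose and 1 fell. IXR1, on which RNR1 transcription depends, rose by 0.54 ± 0.08 and CRT10 by 0.37 ± 0.10, and MBP1, the DNA-binding subunit of MBF, fell by 0.45 ± 0.07. RNR1 itself fell in that mutant, and whether the levels of these regulators bear on it was not tested.

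KAP122, a carrier of the small subunit between nucleus and cytoplasm, fell by 0.33 ± 0.10 in rpb1S751F, the only one of 4 localization genes called. Of the cofactor and electron donor genes 2 rose and 3 fell, with TAH18, the reductase partner of Dre2, at -1.05 ± 0.14, the thioredoxin gene TRX1 at -0.79 ± 0.06 and TRR1 at 0.30 ± 0.05. The other dNTP enzymes moved both ways, with 4 of 10 higher and 4 lower. CDC21 rose by 1.32 ± 0.13 and the cytidine deaminase gene CDD1 by 1.23 ± 0.10, and the nucleotidase gene PHM8 fell by 1.69 ± 0.12.

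In rpb2-10, 1 of 12 checkpoint genes rose and 2 fell, with LCD1 at 0.42 ± 0.08, RAD24 at -0.41 ± 0.07 and the clamp gene MEC3 at -0.28 ± 0.06. DUN1 was not called there, at 0.13 ± 0.12. The damage-inducible genes split, with 4 of 15 higher and 3 lower and a median of -0.088 beside -0.047 over all genes. DDR48 rose by 1.80 ± 0.10, and RAD16 and RAD7, which act together in nucleotide excision repair, fell by 1.80 ± 0.14 and 1.45 ± 0.08. None of the 8 regulators rose, none at an unadjusted p below 0.05 either, and 3 fell. They were CYC8 at -0.23 ± 0.06, IXR1 at -0.38 ± 0.08 and CRT10 at -0.39 ± 0.10. RNR1 was also lower in rpb2-10, and whether the regulator levels bear on it was not tested.

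None of the 4 localization genes was called in rpb2-10 and 1 was lower at an unadjusted p below 0.05. It was DIF1, which brings the small subunit into the nucleus, at -0.19 ± 0.09 (adjusted p = 0.0770). Of the cofactor and electron donor genes 4 rose and 2 fell, with TRX1 at 0.55 ± 0.06, the glutaredoxin gene GRX3 at 0.53 ± 0.06 and DRE2 at -0.61 ± 0.08. TRX1 and DRE2 were called on opposite sides of the wild type in rpb2-10 and in 1 rpb1 allele each, TRX1 in rpb1S751F and DRE2 in rpb1-1. Of the other dNTP enzymes 7 of 10 rose and 1 fell, with CDC21 at 0.81 ± 0.13, the dihydrofolate reductase gene DFR1 at 0.77 ± 0.11 and PHM8 at -1.11 ± 0.12, and their median was 0.35. CDC21 was called higher in all 3 mutants.

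**Figure D5:**
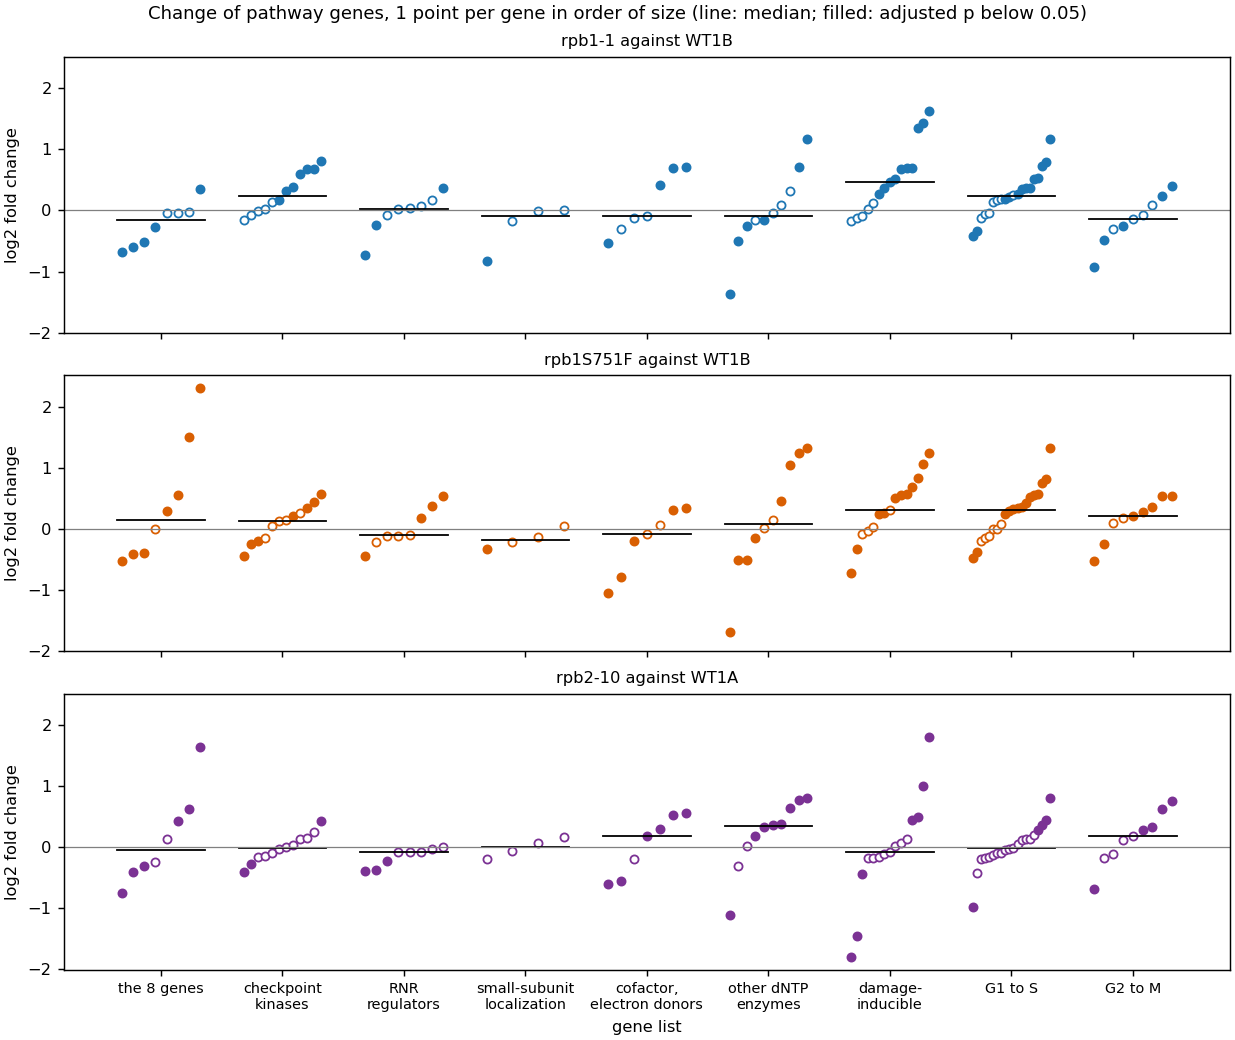
Log2 fold change (vertical axis) of every measured gene of the 8 genes and the 8 lists (horizontal axis) in each mutant; 1 point per gene, filled where the adjusted p was below 0.05, and a line at the list median. The damage-inducible list has its median at 0.47 in rpb1-1, 0.31 in rpb1S751F and -0.088 in rpb2-10, while HUG1, the highest of the 8 genes in rpb1S751F and rpb2-10, is at 2.30 in rpb1S751F and 1.64 in rpb2-10.

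Since RNR1 is a G1 to S gene, genes of the cell cycle are given beside it. Of 20 G1 to S genes, 11 rose and 2 fell in rpb1-1, 12 rose and 2 fell in rpb1S751F, and 4 rose and 1 fell in rpb2-10, with medians of 0.23, 0.30 and -0.020 beside -0.0081, 0.041 and -0.047 over all genes. Over all genes 31.7% rose and 29.8% fell in rpb1-1, 36% and 28.3% in rpb1S751F, and 26.2% and 30.8% in rpb2-10, so the count of higher genes lay above that share in the rpb1 alleles and below it in rpb2-10. RFA1, of the single-strand DNA-binding complex, rose by 0.79 ± 0.09 in rpb1-1. The primase gene PRI2 rose by 0.72 ± 0.08 in rpb1-1 and by 0.57 ± 0.08 in rpb1S751F. POL30, which encodes the sliding clamp PCNA, rose by 0.82 ± 0.09 in rpb1S751F, and PRI1, the other primase gene, by 0.36 ± 0.06 in rpb2-10. CLN2, a G1 cyclin gene, fell by 0.42 ± 0.09 in rpb1-1, 0.47 ± 0.09 in rpb1S751F and 0.98 ± 0.09 in rpb2-10. RNR1 stood at -0.030, -0.41 and -0.75 in this order. RNR1 was not called higher in rpb1-1 or rpb1S751F, in which 11 and 12 of the 20 G1 to S genes rose.

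Of 9 measured G2 to M genes, 2 rose and 3 fell in rpb1-1, 5 rose and 2 fell in rpb1S751F, and 4 rose and 1 fell in rpb2-10, with medians of -0.14, 0.20 and 0.19. The counts in rpb1-1 were near the shares over all genes, 31.7% higher and 29.8% lower, and those of higher genes in rpb1S751F and rpb2-10 stood beside 36% and 26.2%. The mitotic cyclin genes CLB2 and CLB1 fell by 0.92 ± 0.15 and 0.49 ± 0.09 in rpb1-1, where the transcription factor gene SWI5 rose by 0.40 ± 0.10. In rpb1S751F the deacetylase gene HST3 rose by 0.54 ± 0.07, BUD4 by 0.53 ± 0.09 and the polo kinase gene CDC5 by 0.35 ± 0.08. In rpb2-10 HST3 rose by 0.76 ± 0.07, SWI5 by 0.62 ± 0.10 and ALK1 by 0.33 ± 0.07. The part of these cell cycle genes in the RNR1 values was not tested.

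Among themselves, over the 15 arrays after median centring and subtraction of the own wild-type mean, HUG1 went with SML1 (Pearson r = 0.969), RNR3 (0.959) and RNR4 (0.902), and RNR3 with RNR4 (0.910). RNR2 went with none of these, with r of -0.23 for HUG1, -0.17 for RNR3 and 0.17 for RNR4. RFX1 ran opposite to HUG1 (-0.80) and SML1 (-0.82), and RNR1 opposite to SML1 (-0.81) and HUG1 (-0.77). These are descriptions over arrays that fall into 5 groups and share their wild-type means, so they rest on the group differences given above.

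By the same measure over all tested genes, HUG1 was most like YPR127W (0.988), IRC18 (0.987) and YFL012W (0.974), and RNR3 most like YPR127W (0.976), FRM2 (0.975) and IRC18 (0.975). IRC18 stood at -0.64 in rpb1-1, 2.11 in rpb1S751F and 1.17 in rpb2-10, and YPR127W at -0.34, 1.18 and 0.69 in this order. SML1 was most like HUG1 (0.969), YLR012C (0.967) and SHE2 (0.965). RNR4 was most like HPA3 (0.981), DIT1 (0.976) and CAB2 (0.971). RNR2 was most like MRX11 (0.974), TIM21 (0.960) and TAZ1 (0.951), and MRX11 stood at -0.73 in rpb1-1, -0.52 in rpb1S751F and -0.42 in rpb2-10. RNR1 was most like BCS1 (0.926), SMF1 (0.916) and GNP1 (0.915), RFX1 most like FMC1 (0.955), PSP1 (0.950) and MAM33 (0.939), and DIN7 most like MSN2 (0.921), SEC21 (0.915) and MIA40 (0.882). With Spearman's correlation none of the 3 most alike genes was the same for RNR1, RNR2, RNR3, RNR4, SML1 or HUG1, and 2 of 3 were for RFX1 and DIN7.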

How the data were processed

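Values were taken as the authors deposited them: log2 expression levels of 10928 probe sets on 15 arrays, made with RMA per the submitters' processing notes, which also name limma and give no versions. The RMA method includes background correction, quantile normalization and a summary over the probes of a set, and compresses changes of dim genes. The arrays of alpha and a strains had different level distributions. The sources used here do not give the annotation, the genome build or the role of limma.

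The platform annotation gave 1 yeast gene for 5498 probe sets, and the brightest was kept for the 47 genes with several, which left 5449 genes, with 12 symbols updated through the R64 gene table. The arrays entered 1 fit with a term for each of the 5 groups (limma 3.58.1, R 4.3.3). Its variances, moderated by eBayes, had 10 residual degrees of freedom and 2.98 prior ones, with two-sided tests and Benjamini-Hochberg adjustment over the 5449 genes. The fit was tested on simulated data. Probe sets of other species (1746) measured background. Replicates correlated at 0.9865 to 0.9984 across genes, with at most 53 identical values in a pair. Every array was kept as a replicate, and precision is limited by their number.

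The members and lists were chosen with earlier results of these data known. Named genes are the 8 members, RPO21 and RPB2, up to 3 called genes of smallest p per list and comparison (or 1 where none was called), and the 3 genes most correlated with each member. The nearest tested protein-coding genes on either side of each member in the gene table were named after their values were seen. All of them are given in the closing section. Also named after their values were seen were TUP1, DUN1 in rpb2-10, and CLN2 in rpb1-1 and rpb1S751F. The lists cover checkpoint genes, RNR regulators, small-subunit localization, cofactor and electron donor genes, other dNTP enzymes, damage-inducible genes, and G1 to S and G2 to M genes. Alternatives changed the centring, normalization, arrays fitted, weights, prior, filter, probe-set choice and replicate block, and left out each array in turn.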

Additional observations from a re-analysis of the deposited data

Results flagged for a closer look

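The effects of an rpb1 allele and of rpb2-10, each against its own wild type, were compared by a test of the difference itself in the limma fit, and 8 differences among the 8 genes passed an adjusted p of 0.05. Between rpb1-1 and rpb2-10 these were HUG1 (-2.31 ± 0.08, adjusted p = 2.88e-10), RNR3 (-1.13 ± 0.17, adjusted p = 9.79e-05), SML1 (-0.46 ± 0.08, adjusted p = 0.000333), RNR4 (-0.41 ± 0.09, adjusted p = 0.00171), RNR1 (0.72 ± 0.16, adjusted p = 0.00156) and DIN7 (0.60 ± 0.17, adjusted p = 0.00783). HUG1 and RNR3 fell in rpb1-1 and rose in rpb2-10, on all 3 arrays of each mutant. Between rpb1S751F and rpb2-10 they were RNR3 (0.88 ± 0.17, adjusted p = 0.000810) and HUG1 (0.67 ± 0.08, adjusted p = 2.09e-05), both of which rose in both mutants. The array set and the mating type differ in each of these comparisons and cannot be told apart.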

How the results depend on the processing

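Over all alternatives, 782 values of single genes were recomputed, and 745 kept their direction and their side of the threshold. None of the 520 values of called genes changed sign, and 11 lost their call, all of DIN7, RFX1 or RNR1 and given above. Several alternatives could not change a sign, so these counts overstate how far the directions were tried. The prior, the filter and the separate fits left the fold changes as they were and altered only the error and adjustment. Each of the 8 genes had 1 probe set without shared probes, so the alternatives on probe sets reused the same values. The numbers of the 8 genes called stayed within 1.5 times the reported ones except as follows. Without the dimmest 25% of genes, which leaves out HUG1, RNR3 and DIN7, 2 were called in rpb1-1, 4 between rpb1S751F and rpb1-1, 3 between the effects of rpb1-1 and rpb2-10, and 0 between those of rpb1S751F and rpb2-10 (1 of the 5 genes left at an unadjusted limma p below 0.05). With array weights this last count was 4 in place of 2. Without single arrays the counts were 4 to 5 in rpb1-1, 7 in rpb1S751F, 6 in rpb2-10, 6 to 7 between the rpb1 alleles, and 6 to 7 and 2 to 3 for the effects. Genes that were not called changed sign in 12 recomputations. RNR1 in rpb1-1 was at 0.062 with array weights, and -0.13 to 0.066 without single arrays (above 0 at 0.066, 0.0023 and 0.034). RFX1 in rpb1-1 was at -0.10 to 0.00011 without single arrays. DIN7 in rpb1S751F was at 0.11 with array weights, and -0.090 to 0.12 without single arrays. RNR2 between the rpb1 alleles was at -0.048 to 0.15 without single arrays. Between the effects of rpb1S751F and rpb2-10, DIN7 was at -0.10 after a further quantile normalization and RFX1 at 0.053 with array weights. The causes were not tested. Replicate numbers did not pair the samples throughout: 5 of 12 same-numbered pairs had a correlation of deviations over 0.1 (range -0.31 to 0.50). Replicate 1 had 0.32, 0.48 and 0.37 in the alpha-strain pairs and -0.12 in the a-strain pair, and replicates 2 and 3 went both ways. In 8 of 24 comparisons, in which an array can count more than once, an array correlated best with its own number. An even choice among the 3 arrays of the other group would give the same count. A replicate block changed 1 call, that of RNR1 between the effects of rpb1S751F and rpb2-10 (0.34, adjusted p = 0.0463). RMA values understate changes of dim genes.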

Other observations

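HUG1 and SML1, which encode inhibitors of different subunits of the same enzyme, lie next to each other in the reference gene table of assembly R64. The nearest tested protein-coding gene on the other side of HUG1 was NTE1, a phospholipase gene. On the other side of SML1 it was CMP2, a catalytic subunit gene of calcineurin. These neighbours were looked up after the values of the 8 genes were known. NTE1 fell by 0.86 ± 0.18 in rpb1-1 (adjusted p = 0.000916) and by 1.15 ± 0.18 in rpb1S751F (adjusted p = 9.73e-05), and was not called in rpb2-10 (0.17 ± 0.18, adjusted p = 0.450). CMP2 rose by 0.72 ± 0.11 in rpb1-1 and by 0.68 ± 0.11 in rpb1S751F, and stood at 0.063 ± 0.11 in rpb2-10 (adjusted p = 0.651). Of the tested genes from NTE1 to CMP2, 1 thus fell and 3 rose in rpb1S751F, with HUG1 highest at 2.30. In rpb2-10 the inner pair HUG1 and SML1 was called and the outer pair was not.

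For the other members, the nearest tested protein-coding genes on either side are given in full. Genes that were not tested were passed over, so a gene named beside a member may not be its direct neighbour. Beside RNR3, YIL067C fell with it in rpb1-1 (-0.85 ± 0.09, adjusted p = 2.99e-06), fell where RNR3 rose in rpb1S751F (-0.37 ± 0.09, adjusted p = 0.00312) and rose with it in rpb2-10 (0.43 ± 0.09, adjusted p = 0.00120). FIS1, a mitochondrial fission gene on the other side, was at -0.13 and -0.048 in rpb1-1 and rpb1S751F (adjusted p = 0.156 and 0.600) and fell by 0.24 ± 0.08 in rpb2-10. Beside RNR2, YJL027C fell with it in rpb1-1 (-0.68 ± 0.18, adjusted p = 0.00548) and rpb2-10 (-1.14 ± 0.18, adjusted p = 0.000161) and was not called in rpb1S751F (-0.17 ± 0.18, adjusted p = 0.445). RRN7, an RNA polymerase I factor gene on its other side, fell by 0.49 ± 0.09 in rpb1-1 and was not called in rpb1S751F (0.10 ± 0.09, adjusted p = 0.353) or rpb2-10 (0.069 ± 0.09, adjusted p = 0.544).

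Beside RNR4, OKP1, a kinetochore gene, rose in all 3 mutants, by 0.32 ± 0.07 in rpb1-1, 0.32 ± 0.07 in rpb1S751F and 0.21 ± 0.07 in rpb2-10. TIM13, of mitochondrial protein import, fell by 0.17 ± 0.06 in rpb1-1, was at -0.13 ± 0.06 in rpb1S751F (adjusted p = 0.0519) and rose by 0.26 ± 0.06 in rpb2-10. Beside RNR1, MOT2, a gene of the Ccr4-Not complex, rose by 0.26 ± 0.08 in rpb1-1, was at 0.067 ± 0.08 in rpb1S751F (adjusted p = 0.457) and fell by 0.44 ± 0.08 in rpb2-10. TDA2 fell by 0.37 ± 0.11 in rpb1-1, was at 0.044 ± 0.11 in rpb1S751F (adjusted p = 0.749) and rose by 0.49 ± 0.11 in rpb2-10.

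Beside RFX1, CBF5, the pseudouridine synthase gene of small nucleolar particles, fell by 0.26 ± 0.10 in rpb1-1, 0.25 ± 0.10 in rpb1S751F and 0.26 ± 0.10 in rpb2-10. YLR177W rose by 0.91 ± 0.22 in rpb1S751F and was at -0.15 and 0.21 in rpb1-1 and rpb2-10 (adjusted p = 0.596 and 0.438). Beside DIN7, AKR1, a palmitoyl transferase gene, rose by 0.56 ± 0.11 in rpb1S751F and 1.00 ± 0.11 in rpb2-10 and was at 0.094 ± 0.11 in rpb1-1 (adjusted p = 0.495). YDR262W rose by 0.62 ± 0.13 in rpb2-10 and was at 0.24 and 0.19 in rpb1-1 and rpb1S751F (adjusted p = 0.128 and 0.216).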
